A study of Mus musculus with 40 samples.

Results

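The comparison described is that of pioglitazone (Pio) with no Pio in liver-specific PPARγ knockout (KO) mice on a high-fat diet (HFD). It comprises 10 of the 40 mice of the study, chosen by their labels as the 5 KO HFD-Pio mice (numbers 16 to 20) and the 5 KO HFD mice (numbers 6 to 10). All were male mice in which a floxed Pparg was deleted by a Cre recombinase under the albumin promoter, so that cells of the liver other than hepatocytes keep the gene. They were fed from 2 to 5 months of age on a diet with 60% of calories from fat, which contained 0.01% Pio by weight in the HFD-Pio group and no Pio in the HFD group. In these livers edgeR and limma called 0 genes for Pio, and DESeq2 called 8. Where no tool is named, a gene is called or not called by edgeR. The wild-type (WT) mice on the same diets, a C57BL6/J strain and not littermates, served to test whether the effect of Pio differed between the genotypes, and KO mice on control diet served the same test between diets.

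PPARγ is a nuclear receptor that binds DNA together with RXR and turns on genes of lipid storage. Pio, a thiazolidinedione used in type 2 diabetes, is one of its ligands, and most of its action takes place in adipose tissue, where PPARγ is most abundant. In fatty liver, hepatocytes also express PPARγ, and lipid droplet genes such as Cidec and Plin4 are among its known targets. Thiazolidinediones have further been described to bind the mitochondrial pyruvate carrier, which is made of the products of Mpc1 and Mpc2. A KO liver therefore tests what Pio does there without hepatocyte PPARγ, through other receptors, other cells or other organs.

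The 10 libraries held 22615415 to 28334251 counts, of which 0.495% to 1.46% fell on rRNA genes. Pparg (chromosome 6, 115360951 to 115490399 of GRCm38) had 7.37, 7.31, 8.77, 3.70 and 5.34 CPM (TMM-normalised counts scaled to library size) in KO HFD mice 6 to 10 and 5.47, 9.93, 7.02, 6.29 and 8.68 CPM in KO HFD-Pio mice 16 to 20. The groups overlapped. A gene total includes exons outside a deleted part and the transcripts of other cells, so it does not measure the deletion. Hepatocyte markers were abundant in every library, with Alb, which encodes albumin, at 47790 to 97310 CPM. In RNA from whole liver, fewer cells of a type and less RNA per cell cannot be told apart.

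KO HFD mouse 9 stood apart from all other mice. Its log2 profile correlated at 0.940 to 0.961 with those of the other 9 mice, which correlated with each other at 0.981 to 0.994, and the first principal component, with 51.1% of the variance, separated it from the rest. Its level lay more than 2-fold above those of all other mice in 265 genes and more than 2-fold below them in 97, together 2.99% of the genes tested, against at most 0.165% in any other mouse. It had 14780 CPM of Saa2 and 14490 CPM of Saa1, which encode serum amyloid A, the major acute phase protein of the mouse, while the other KO HFD mice had 10.3 to 504 and 27.6 to 592 CPM. Orm2 and Lcn2, also acute phase genes, reached 2948 and 2857 CPM, and the metallothionein genes Mt1 and Mt2 reached 2783 and 1902 CPM. Saa1 and Saa2 are near-identical, as are the metallothioneins, so the split of reads within each pair is uncertain. The 8 neutrophil markers summed to 492 CPM in mouse 9 and to 3.03 to 24.3 CPM in the other KO HFD mice, with the myeloperoxidase gene Mpo at 50.8 CPM against at most 2.04 CPM. Results are therefore given with and without mouse 9.

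2 more mice bear on single values. KO HFD mouse 10 had the highest levels of pancreas and skeletal muscle transcripts: 9 acinar markers summed to 815 CPM against 6.28 to 29.3 CPM in the other KO HFD mice, with the chymotrypsinogen gene Ctrb1 at 185 CPM against at most 0.142 CPM, and 6 muscle markers summed to 19.4 CPM against at most 0.124 CPM in any other mouse. Its Adipoq, which encodes adiponectin, was the highest of the 10 mice but low, at 0.69 CPM. KO HFD-Pio mouse 20 had 226 CPM of Saa2 and 1132 CPM of Mt1, against at most 66.6 and 100 CPM in the other HFD-Pio mice. The sum of the 40 acute phase genes was 37940 to 57230 CPM in the HFD-Pio mice, 33220 to 47960 CPM in the other HFD mice and 209800 CPM in mouse 9.

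**Figure D1:**
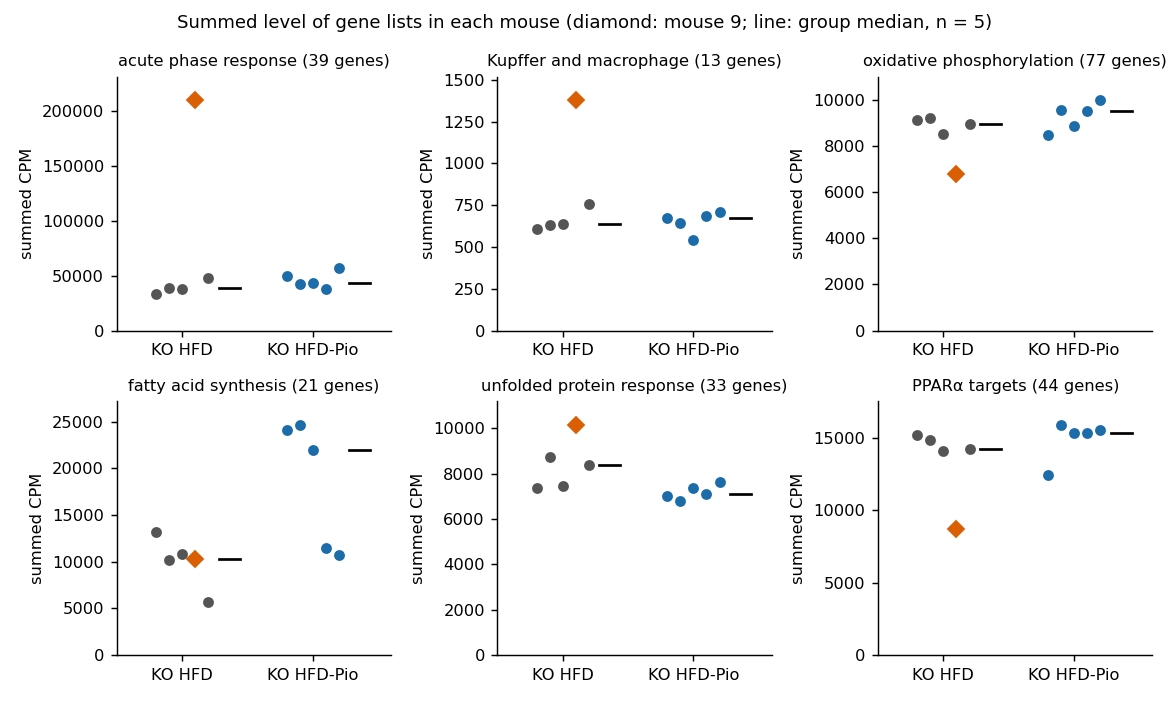
Summed TMM-normalised CPM of the tested genes of 6 lists (y axes, from 0) in each of the 5 KO HFD and 5 KO HFD-Pio mice; the diamond is mouse 9 and the line the median of a group. Mouse 9 lies far above the other mice for acute phase genes (209700 CPM) and below them for oxidative phosphorylation and PPARα target genes. The HFD-Pio mice fall in a higher set of 3 and a lower set of 2 for fatty acid synthesis. Scd1 alone makes up most of that sum in the higher 3.

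Across the transcriptome, 0 of 12091 genes were called for Pio (0%) by edgeR's quasi-likelihood test, whose lowest adjusted p was 0.998. An unadjusted p under 0.05 was found for 368 genes (3.04%), 177 with the higher and 191 with the lower level in HFD-Pio mice. Without mouse 9, 0 genes were called as well (0%), with a lowest adjusted p of 0.53 and 583 genes at an unadjusted p under 0.05 (4.82%). Limma with sample weights also called 0 genes, with 641 at an unadjusted p under 0.05, and 0 with 702 without mouse 9, while DESeq2 called 8 and 22. The common dispersion of counts was 0.0375 with and 0.0183 without mouse 9.

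The data bounded the size of most effects. The median log2 fold change was -0.005, the quartiles were -0.08 and 0.06, and the median standard error was 0.11. The 95% confidence interval lay within 2-fold in either direction for 11325 genes (93.7%), and for 8965 of the 9336 genes whose mean reached 5 CPM (96.0%). Without mouse 9 these were 11675 genes (96.6%) and 9110 genes (97.6%). A log2 fold change above 1 was estimated for 16 genes and one below -1 for 62, and without mouse 9 for 30 and 26. The 5 HFD-Pio mice lay entirely above the 5 HFD mice in 32 genes (0.265%) and entirely below them in 45 (0.372%), together 0.637%. Without mouse 9, when groups of 5 and 4 separate more easily, these were 98 (0.811%) and 119 (0.984%), together 1.79%.

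**Figure D2:**
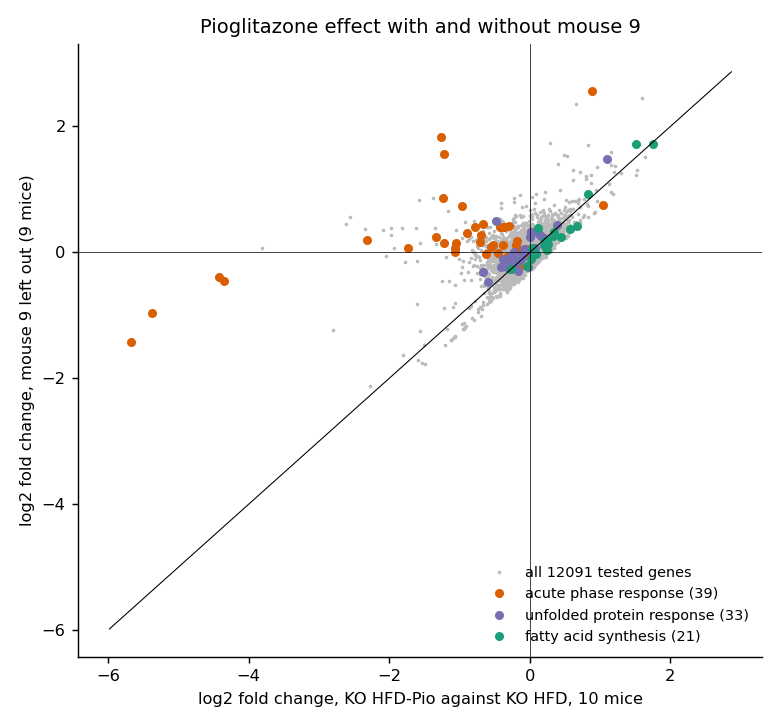
Log2 fold change of KO HFD-Pio against KO HFD mice from all 10 mice (x axis) and with mouse 9 left out (y axis) for each tested gene, with 3 lists in colour and a line of equality. The 4 leftmost points are acute phase genes, down to -5.68 for Orm2 with all 10 mice and -1.42 without mouse 9, while most genes of fatty acid synthesis and the unfolded protein response stay close to the line.

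The receptors and their partners differed little between the groups. The log2 fold change was 0.20 for Pparg (95% interval -0.32 to 0.72), 0.02 for Ppara (-0.51 to 0.54), which encodes the fatty acid receptor of hepatocytes, and -0.04 for Rxra (-0.22 to 0.15), which encodes the main RXR of liver. All 14 tested genes of receptors and coregulators had intervals within 2-fold, and 1 had an unadjusted p under 0.05: Ncor1, a corepressor, with -0.14 (-0.26 to -0.01). The pyruvate carrier genes had log2 fold changes of 0.12 for Mpc1 (-0.34 to 0.59) and 0.17 for Mpc2 (-0.14 to 0.49), and of -0.04 (-0.29 to 0.21) and 0.06 (-0.12 to 0.24) without mouse 9. Mouse 9 had the lowest level of both. Among the 16 tested genes of the carrier and of pyruvate metabolism, 0 had an unadjusted p under 0.05 in edgeR's test with or without mouse 9.

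Of the 25 listed genes of lipid storage that PPARγ is known to control or that act beside them, 21 were tested, 0 were called, and the median log2 fold change was 0.01, against -0.005 for all genes. Cidec, which encodes a protein that enlarges lipid droplets, had 2.82, 3.42, 1.99, 2.45 and 3.86 CPM in KO HFD mice 6 to 10 and 2.66, 3.02, 2.84, 2.52 and 5.41 CPM in HFD-Pio mice 16 to 20. The groups overlapped throughout, with a log2 fold change of 0.18 (-0.37 to 0.73). Plin4, which encodes a lipid droplet coat protein, had -0.14 (-0.80 to 0.53), and Cav1, which encodes caveolin, 0.18 (-0.32 to 0.67). Of the 64 genes named by rule, 22 share exonic bases with another annotated gene, and whether counting used strand is not stated. Among these are Plin4 (with Hdgfl2), Mpc1, Pnpla3, Slc45a3, Arhgef3, Rcor3, Pdia3, Foxo1, Ncor1 and Gprc5b.

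The fatty acid carriers depended on mouse 9. Cd36, which encodes a fatty acid transporter, had 22.9, 21.6, 26.3, 57.2 and 28.9 CPM in the HFD mice and 55.5, 45.9, 25.5, 30.3 and 30.2 CPM in the HFD-Pio mice. Mouse 9 was the highest of the HFD group, and the log2 fold change was 0.26 (-0.42 to 0.93) with it and 0.59 (0.05 to 1.13) without it. Fabp4, which encodes the fatty acid binding protein of adipocytes and macrophages, moved from -0.13 (-1.16 to 0.91) to 0.56 (-0.10 to 1.21), and Lpl, the lipoprotein lipase gene, from 0.10 (-0.49 to 0.69) to 0.42 (0.02 to 0.81). Macrophage markers were also highest in mouse 9, and their part in these values was not tested. Cd36 and Lpl were the only genes of this list with an unadjusted p under 0.05 without mouse 9, and neither was called (adjusted p = 0.945, edgeR).

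4 of the 25 genes fell below the filter. Cfd, which encodes adipsin, had 1.35, 0.332, 0.199, 0.998 and 2.87 CPM in KO HFD mice 6 to 10 and 0.213, 0, 0.0836, 0.0393 and 0.260 CPM in HFD-Pio mice 16 to 20, with mouse 10, which also had the pancreatic transcripts, the highest. Mogat1, a gene of triglyceride synthesis, had 0.125 to 0.379 CPM in HFD and 0.0393 to 0.289 CPM in HFD-Pio mice. Cidea and Aqp7 were also not tested. At these depths a level of 0.0393 CPM is 1 read.

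PPAR receptors bind a direct repeat of AGGTCA with 1 base between. RefSeq promoter windows of 300 bases (250 before to 50 after a transcript's start, GRCm38.p6) were searched on both strands for AGGTCANAGGTCA and for the looser AGGNCANAGGNCA, which contains it. The strict form occurred in 13 of 32851 windows (0.0396%) and in 0 of the windows of the tested genes of lipid storage (16 genes with a window), PPARα targets (31) or fatty acid synthesis (16). The looser form occurred in 125 windows (0.381%) and in those of 2 of these genes, which are shown because they place a PPAR-type repeat next to a measured level. Both are read along the strand of the gene, with the match, on the other strand, in capitals.
Fabp1, chr6:71199804-71199832: acaatcacTGACCTATGGCCTatatctga
Elovl1, chr4:118429598-118429626: ctaggcatTGACCTGTGGCCTggacccac
Fabp1, which encodes the liver fatty acid binding protein, had 3413, 3043, 2611, 883 and 2432 CPM in the HFD mice and 2594, 3508, 3783, 3233 and 3282 CPM in the HFD-Pio mice. Only mouse 9 lay outside the range of the others by much, and the log2 fold change was 0.41 (-0.24 to 1.05), or 0.19 (-0.08 to 0.46) without it. Elovl1, a fatty acid elongase gene, had 0.03 (-0.13 to 0.19). A match of letters is a description and does not show that a receptor binds there.

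PPARα drives the oxidation of fatty acids in liver, and Pio can bind PPARα weakly. Of its 44 listed target and pathway genes, 0 were called. Their median log2 fold change was 0.06 with and -0.05 without mouse 9, and 32 and 14 of them lay above 0. Mouse 9 had the lowest sum of the list, 8693 CPM against 14130 to 15240 CPM in the other HFD mice. The core enzymes of mitochondrial β-oxidation were close to equal without mouse 9: Cpt1a had -0.06, Acadm -0.09, Hadha -0.04 and Acaa2 -0.03.

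With all 10 mice, 3 genes of the list had an unadjusted p under 0.05: Ehhadh, Cyp4a10 and Cyp4a12a. Ehhadh, which encodes the bifunctional enzyme of peroxisomal β-oxidation, had 218, 221, 215, 106 and 216 CPM in the HFD mice and 272, 321, 232, 286 and 261 CPM in the HFD-Pio mice. Every HFD-Pio mouse lay above every HFD mouse. Its log2 fold change was 0.49 (0.08 to 0.90) with and 0.34 (0.16 to 0.52) without mouse 9. Of the fatty acid ω-hydroxylase genes, Cyp4a10 had 57.7 ± 28.6 CPM in HFD and 131 ± 50.3 CPM in HFD-Pio mice (mean ± SD, n = 5), a log2 fold change of 1.18 (0.18 to 2.19), and Cyp4a12a had 73.4 ± 24.4 and 130 ± 23.9 CPM (n = 5), a log2 fold change of 0.82 (0.35 to 1.29). Its close relative Cyp4a12b, outside the list and added after its values were seen, had 1.16 (0.49 to 1.82), with no overlap of the groups. Leaving mouse 9 out gave 0.93 (0.22 to 1.63) for Cyp4a10 and 0.73 (0.23 to 1.24) for Cyp4a12a. The Cyp4a genes are similar enough that the assignment of reads among them is uncertain. Other targets differed in sign: Cyp4a14 had 0.55, Acot1 0.61 and Fabp1 0.41, but Pdk4 had -0.01, Angptl4 -0.22 and Fgf21 -0.74. With mouse 9 left out, Cyp4a14 had 0.30, Acot1 0.37, Fabp1 0.19, Pdk4 -0.08, Angptl4 -0.37 and Fgf21 -0.94. Without mouse 9, 5 genes of the list had an unadjusted p under 0.05 above 0 and 5 below 0, and none had an adjusted p at or under 0.05.

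Genes of fatty acid synthesis lay mostly above 0, and Acacb, Scd1 and Pnpla3 had an unadjusted p under 0.05 both with and without mouse 9. Of 21 genes, 19 had a positive log2 fold change (90.5%, against 48.0% of all genes), or 17 without mouse 9 (81.0%, against 51.9%). The median was 0.25 with and 0.19 without mouse 9, and edgeR called 0 genes. Genes of a list can vary together, so counts of members, here and below, are not counts of independent measurements. The sums of this list overlapped, at 5680 to 13130 CPM in the HFD mice and 10670 to 24710 CPM in the HFD-Pio mice. Without mouse 9 DESeq2 called Acacb and Pnpla3. Acacb, which encodes the acetyl-CoA carboxylase that limits mitochondrial fatty acid entry, had 103, 80.9, 90.2, 113 and 55.4 CPM in the HFD mice and 138, 190, 218, 118 and 118 CPM in the HFD-Pio mice. The groups did not overlap, and the log2 fold change was 0.82 (0.32 to 1.32). Scd1, which encodes the stearoyl-CoA desaturase, had 5405, 3647, 3714, 6156 and 1212 CPM in the HFD mice and 16320, 17160, 13270, 5637 and 5002 CPM in the HFD-Pio mice. HFD-Pio mice 16 to 18 lay above all HFD mice and mice 19 and 20 did not, so the log2 fold change of 1.51 had a wide interval (0.47 to 2.56). Pnpla3, a lipogenic gene of low level that encodes a lipid droplet hydrolase, had 1.43, 0.949, 0.757, 0.831 and 0.694 CPM in the HFD mice and 4.79, 1.78, 5.77, 2.16 and 1.30 CPM in the HFD-Pio mice, and the log2 fold change was 1.75 (0.80 to 2.72). Mouse 20 was the only HFD-Pio mouse within the HFD range. Values for the other enzymes were smaller and their intervals included 0, such as 0.44 for Fasn (-0.49 to 1.37) and 0.68 for Me1 (-0.36 to 1.71). Their regulator Srebf1 had 0.23, and Mlxipl, which encodes the carbohydrate response factor ChREBP, 0.08.

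**Figure D3:**
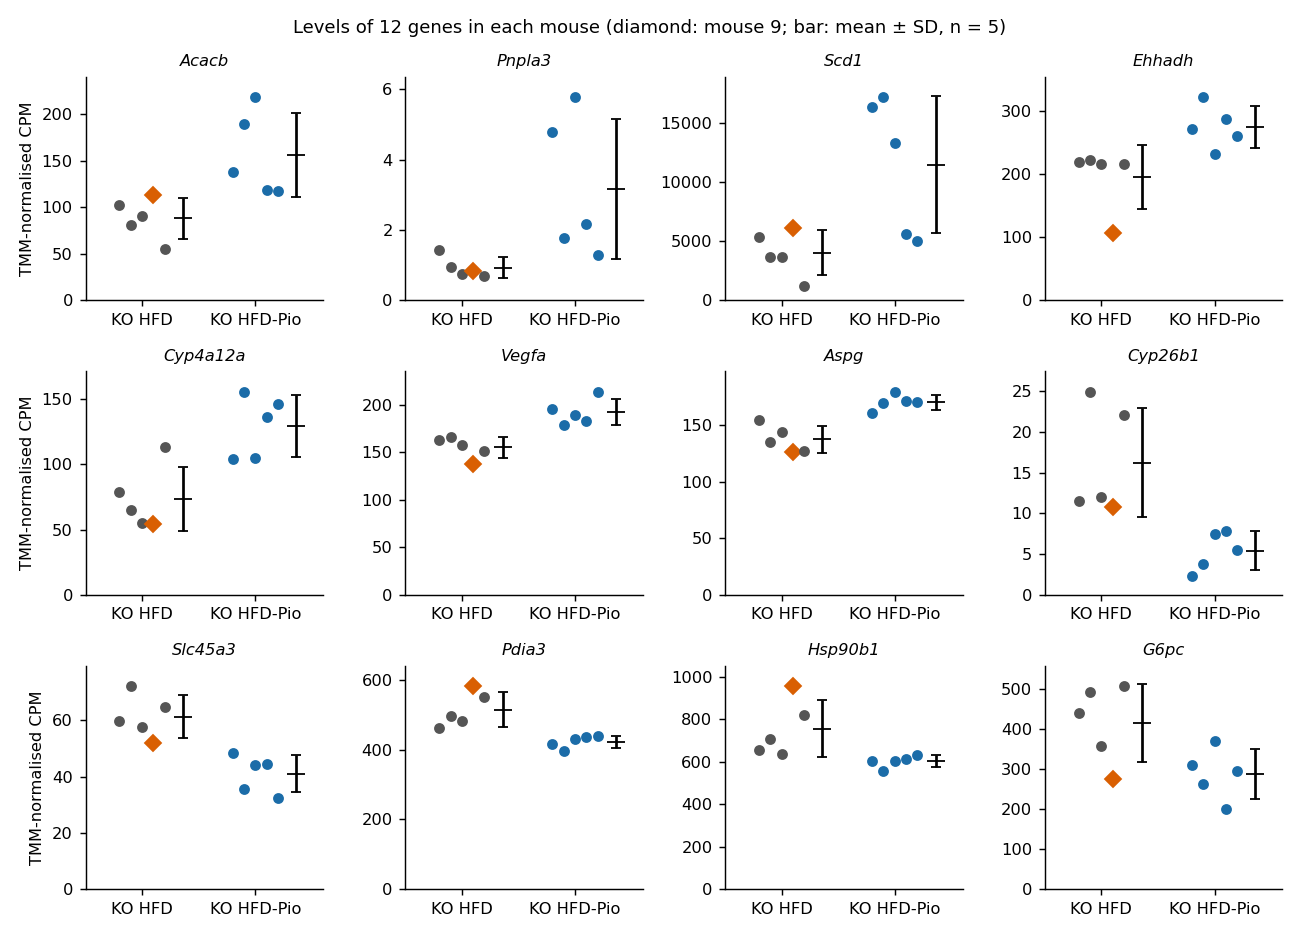
TMM-normalised CPM of 12 genes (y axes, from 0) in each KO HFD and KO HFD-Pio mouse; the diamond is mouse 9 and the bar the mean ± SD of 5 mice. Acacb, Ehhadh, Vegfa and Aspg lie higher in every HFD-Pio mouse and Cyp26b1, Slc45a3, Pdia3 and Hsp90b1 lower, while HFD-Pio mice 19 and 20 fall within the HFD range for Scd1 (5637 and 5002 CPM).

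Sterol genes showed no common direction, with 15 of 28 above 0 and a median of 0.05. The 2 genes with the smallest unadjusted p were the INSIG genes, whose products hold SREBP proteins in the endoplasmic reticulum. Another gene of the list had the highest log2 fold change, 0.72. Insig1 had 294, 307, 312, 153 and 213 CPM in the HFD mice and 461, 306, 377, 336 and 328 CPM in the HFD-Pio mice, and the log2 fold change was 0.50 (0.07 to 0.93). Insig2 had 222, 201, 190, 255 and 212 CPM in the HFD mice and 147, 192, 143, 183 and 172 CPM in the HFD-Pio mice, and the log2 fold change was -0.37 (-0.60 to -0.13). In both genes the groups overlapped only at their edges, and both values kept their sign without mouse 9, at 0.36 and -0.30. Neither gene was called.

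In glucose metabolism, 3 of 34 genes had an unadjusted p under 0.05, all below 0, with and without mouse 9. Among all 12091 genes, 191 had one below 0, or 266 without mouse 9. G6pc, which encodes the catalytic unit of glucose-6-phosphatase, had 440, 491, 357, 275 and 507 CPM in the HFD mice and 308, 262, 368, 199 and 294 CPM in the HFD-Pio mice. The log2 fold change was -0.53 (-0.96 to -0.10) with and -0.65 (-1.01 to -0.28) without mouse 9, which had the lowest level of its group. Foxo1, which encodes the transcription factor that insulin restrains, had -0.23 (-0.38 to -0.09), and Irs1, an insulin receptor substrate gene, -0.45 (-0.88 to -0.02). Pck1, the other main gluconeogenic gene, had -0.03 (-0.26 to 0.21), and the median of the list was -0.03. The list ran from -0.53 to 1.16, or -0.65 to 1.59 without mouse 9. Above 0 lay 13 of the 34 genes (38.2%, against 48.0% of all genes), or 19 without mouse 9 (55.9%, against 51.9%).

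Bile acid genes had a median of 0.03 with and -0.08 without mouse 9, where 23 of 28 lay below 0. Cyp7a1, which encodes the rate-limiting enzyme of bile acid synthesis, had 0.17 (-0.78 to 1.12). Cytochrome P450 genes of drug metabolism had a median of -0.03 with and -0.20 without mouse 9, in which they were lowest, at a sum of 7118 CPM against 12210 to 14690 CPM in the other HFD mice. Cyp3a11, a target of the xenobiotic receptor PXR, had 133, 128, 135, 7.65 and 153 CPM in the HFD mice and 84.2, 112, 112, 111 and 75.5 CPM in the HFD-Pio mice. With mouse 9 left out, all HFD-Pio mice lay below the HFD mice, and its log2 fold change was -0.47 (-0.74 to -0.19), compared with -0.17 (-1.39 to 1.05) for all 10 mice. It was not called in either case.

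Of 77 tested nuclear genes of oxidative phosphorylation, 76 had a log2 fold change above 0 (98.7%, against 48.0% of all genes), with a median of 0.13, and 72 without mouse 9 (93.5%, against 51.9%), with a median of 0.07. All 77 intervals lay within 2-fold. None was called, and 5 had an unadjusted p under 0.05, all above 0, where 3.04% of all genes had one in either direction. Atp5g1, which encodes subunit c of the ATP synthase, had 11.7, 11.4, 10.7, 10.4 and 9.51 CPM in the HFD mice and 12.8, 13.8, 13.0, 12.9 and 13.5 CPM in the HFD-Pio mice. The groups did not overlap, and the log2 fold change was 0.30 (0.15 to 0.45). Most other values were smaller, such as 0.16 for Cox7a2 (0.03 to 0.28) and 0.15 for Uqcrh. Because such genes vary together from mouse to mouse, the count above 0 is not a count of independent measurements. HFD-Pio mouse 16 had the lowest sum of its group, 8487 CPM, below each HFD mouse except mouse 9.

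Genes of the unfolded protein response were the list with the most members at an unadjusted p under 0.05 below 0, with 8 of 33, or 9 without mouse 9, against 191 and 266 of all 12091 genes. The median was -0.17 with and -0.09 without mouse 9, which had the highest sum of the list. The 8 genes encode chaperones, disulfide isomerases and co-chaperones of the endoplasmic reticulum: Hsp90b1, Pdia3, Pdia4, Pdia6, Calr, Dnajb11, Dnajc3 and Sdf2l1. Pdia3 had 464, 497, 482, 584 and 551 CPM in the HFD mice and 418, 397, 431, 436 and 439 CPM in the HFD-Pio mice, and the log2 fold change was -0.28 (-0.46 to -0.10). Hsp90b1 had 657, 709, 637, 958 and 821 CPM in the HFD mice and 604, 554, 606, 611 and 633 CPM in the HFD-Pio mice, and the log2 fold change was -0.33 (-0.59 to -0.08). In both genes every HFD-Pio mouse lay below every HFD mouse. Sdf2l1 had the largest value of the 8, -0.60, or -0.47 without mouse 9. Of the transcription factors and stress effectors of the same response, Xbp1 had 0.02, Atf4 0.16 and Atf6 0.03, above 0, and Ddit3 -0.08, below 0. The whole list ran from -0.66 to 1.09. None of the 33 genes was called.

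**Figure D4:**
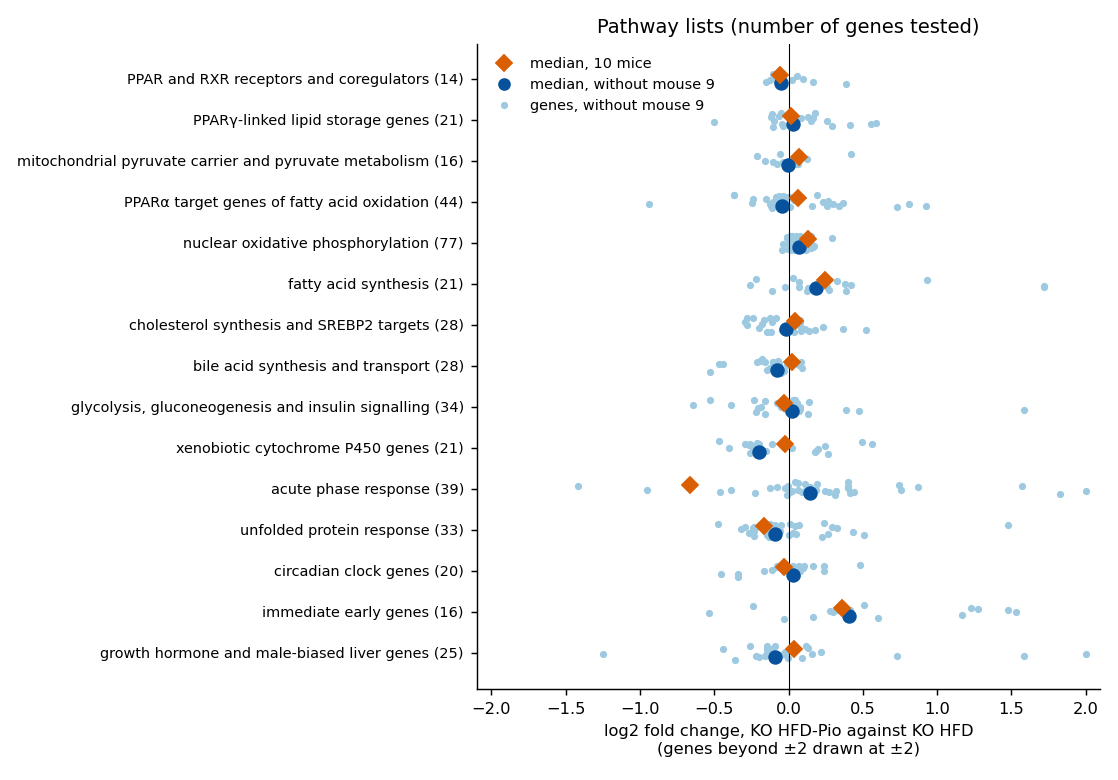
Log2 fold changes of KO HFD-Pio against KO HFD mice for 15 pathway lists, with the number of tested genes in brackets; diamonds are medians from 10 mice, large circles medians without mouse 9, and small circles single genes without mouse 9. All medians lie between -0.66 and 0.41, and that of acute phase genes moves from -0.66 to 0.14 when mouse 9 is left out.

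Immediate early genes, which respond within minutes to stimuli that include handling, lay above 0 in 12 of 16 cases with a median of 0.36, and 6 intervals without mouse 9 lay within 2-fold. The median rested on HFD-Pio mouse 20, without which it was 0.00014. Fos had 3.11, 7.26, 3.83, 7.57 and 10.2 CPM in the HFD mice and 28.7, 5.09, 6.35, 17.5 and 15.7 CPM in the HFD-Pio mice, and the log2 fold change was 1.20 (0.11 to 2.29). Mice 17 and 18 lay within the HFD range. Clock genes had a median of -0.03, and Npas2 moved from -1.25 (-2.39 to -0.12) to -0.45 (-0.98 to 0.08) without mouse 9, which had 6.78 CPM against 1.20 to 1.74 CPM in the other HFD mice. Among growth hormone and male-biased genes the median was 0.04, and Cish, an inhibitor of growth hormone signalling, had 2.03 to 20.4 CPM in the HFD and 3.23 to 51.2 CPM in the HFD-Pio mice.

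The genes with the smallest unadjusted p were not members of 1 pathway. Aspg, which encodes an asparaginase, had 154, 135, 144, 126 and 127 CPM in the HFD mice and 161, 169, 179, 171 and 170 CPM in the HFD-Pio mice, and the log2 fold change was 0.31 (0.16 to 0.46). Vegfa, the vascular growth factor gene (chromosome 17, 46016993 to 46032369), had 163, 166, 158, 137 and 151 CPM in the HFD mice and 195, 179, 189, 183 and 214 CPM in the HFD-Pio mice, and the log2 fold change was 0.31 (0.15 to 0.47). Atp5g1, Rcor3, a corepressor gene with 0.46 (0.21 to 0.72), and Haus7, a spindle gene with 0.38 (0.17 to 0.59), completed the 5 higher genes named by rule. In all 5 the groups did not overlap, as in 0.637% of all genes in either direction. These genes were picked for their small p, so this is a description.

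Of the 5 lower genes named by rule, Cyp26b1 (chromosome 6, 84571414 to 84593908), which encodes an enzyme that degrades retinoic acid and is expressed in stellate cells, had the largest change. Its levels were 11.5, 25, 12.0, 10.7 and 22.1 CPM in the HFD mice and 2.24, 3.81, 7.48, 7.87 and 5.52 CPM in the HFD-Pio mice. The groups did not overlap, and the log2 fold change was -1.59 (-2.41 to -0.78), or -1.71 (-2.62 to -0.80) without mouse 9. Stellate cell and matrix markers had a median of -0.07 over 10 tested genes, and none of them had an unadjusted p under 0.05. Slc45a3, a sugar transporter gene, had -0.58 (-0.85 to -0.31), and Arhgef3, a guanine nucleotide exchange factor gene, -0.44 (-0.66 to -0.23). Gm16573, a gene that overlaps Parp4 on the other strand, had -0.42 (-0.60 to -0.24). Ddit4, which encodes an inhibitor of mTORC1 that glucocorticoids and fasting induce, had 30.2 ± 4.49 and 19.3 ± 4.16 CPM (mean ± SD, n = 5), a log2 fold change of -0.65 (-0.98 to -0.31).

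Without mouse 9, the genes with the smallest unadjusted p included some that were extreme in it. Acpp, an acid phosphatase gene, had 7.45, 7.31, 6.97, 52.4 and 9.25 CPM in the HFD mice and 12.0, 14.5, 13.5, 12.9 and 10.1 CPM in the HFD-Pio mice. Its log2 fold change was -0.40 (-1.67 to 0.86) with mouse 9 and 0.71 (0.45 to 0.97) without it. Adam11, a gene of the ADAM family, moved from -0.14 to 0.90 (0.54 to 1.27) in the same way. Tsc22d3, which encodes the glucocorticoid-induced leucine zipper, had 227, 258, 236, 92.1 and 183 CPM in the HFD mice and 117, 163, 152, 146 and 111 CPM in the HFD-Pio mice, and moved from -0.53 (-1.07 to 0.00) to -0.71 without it, where the groups did not overlap. Fgfr2 (0.32), Tmcc1 (-0.35) and Gpc1 (-0.73) completed the genes named without mouse 9. The lowest adjusted p among these 6 genes was 0.53 in edgeR's quasi-likelihood test.

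DESeq2 called 8 genes (3 higher and 5 lower) with all 10 mice. They were Slc38a3, Aspg and Vegfa above, and Cyp26b1, Slc45a3, Magt1, Jchain and Gm16573 below. In each of them the groups did not overlap, as in 0.637% of all genes in either direction. Genes picked for a small p tend to show this, so it is a description. Slc38a3, which encodes a glutamine transporter, had a log2 fold change of 0.21 in DESeq2 (adjusted p = 0.00907), and Jchain, a plasma cell gene, -1.51 (adjusted p = 0.0360). Without mouse 9 DESeq2 called 22 genes, 12 higher and 10 lower, of which 7 were among the 8. These included Acacb (0.93, adjusted p = 0.0169), Pnpla3 (1.72, adjusted p = 0.0495), Cyp4a12b (0.96, adjusted p = 0.00127) and Pltp, which encodes the phospholipid transfer protein (0.39, adjusted p = 0.0437), all higher, and G6pc (-0.65, adjusted p = 0.0437) and Tsc22d3 (-0.71, adjusted p = 0.000980), lower. Slc38a3, Magt1, Jchain, Cyp4a12b and Pltp are named because DESeq2 called them, after their values were seen. On the same counts edgeR's test and limma called 0 of them.

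Acute phase genes and cell markers followed mouse 9. Of 39 acute phase genes tested, 36 lay below 0 with a median of -0.66 and 10 without mouse 9 with a median of 0.14. Saa2 had a log2 fold change of -5.38 (-9.87 to -0.89) with and -0.95 (-4.03 to 2.12) without it. All 13 Kupffer cell and macrophage markers lay below 0 with mouse 9 (median -0.28) and 8 without it (median -0.007, all 13 intervals within 2-fold). Markers of endothelium (9 tested), stellate cells and matrix (10) and cholangiocytes (5) had medians between -0.07 and -0.02 with and between -0.01 and 0.06 without mouse 9. Hepatocyte markers had medians of 0.14 and 0.09, and their sum was highest in HFD-Pio mouse 16, at 137700 CPM.

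Whether KO mice responded differently from WT mice was tested by comparing the effects of Pio on HFD in a fit of 20 mice. The difference was called for 46 of 12477 genes (0.369%), 20 above 0 and 26 below 0. All 46 were also called for Pio in WT mice, whose values enter both tests. The count was 82 without KO HFD mouse 9 and ran from 15 to 133 with any single mouse of the 20 left out. In the 26 genes below 0 (0.208%) the WT log2 fold changes ran from 0.54 to 4.66, and in the 20 above 0 (0.16%) from -1.93 to -0.35. The corresponding KO values had medians of -0.15 and 0.08. Choosing genes by the difference itself tends to push their KO values away from the WT values, so these medians are a description. Of the 26 genes, 21 also passed the filter in the 10 KO mice, and the others entered the test through their WT levels. Levels of WT and KO mice were not tested against each other, because each genotype has its own table and its own source of mice.

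In WT mice, Cidec rose from 7.63, 18.7, 7.66, 15.9 and 8.44 CPM on HFD to 113, 125, 52.2, 96.0 and 81.1 CPM on HFD-Pio, while every KO mouse had 1.93 to 5.25 CPM on the scale of the 20 mice. The KO effect was lower than the WT effect by -2.81 in log2 units (edgeR interaction term, adjusted p = 0.00516). Cfd rose from 3.04 to 38.1 CPM in WT HFD mice to 83.4 to 470 CPM in WT HFD-Pio mice, and did not exceed 2.77 CPM in any KO mouse (difference -7.82, adjusted p = 0.0140 in edgeR's interaction test). The size of the Cfd difference also rests on KO levels of a few reads. Gprc5b, an orphan receptor gene, rose from 0.666 to 2.34 CPM in WT HFD mice to 20.5 to 42.5 CPM, and KO mice had 0.343 to 0.969 CPM (difference -4.47, adjusted p = 0.000192 in edgeR's interaction test). Cfd, Gprc5b and Mogat1 fell below the filter of the 10 KO mice and entered this test through their WT levels. For Serpinb1a, a protease inhibitor gene, the difference was -3.76 (adjusted p = 0.00842 in edgeR's interaction test). Its effect in the fit of the 10 KO mice was -0.82, or 0.03 without mouse 9, which had the highest level. With single mice left out, the Serpinb1a difference ran from -4.18 to -2.93. Cd36 (-1.73, adjusted p = 0.0608), Plin4 (-1.62, adjusted p = 0.0855) and Mogat1 (-2.69, adjusted p = 0.0963) missed the threshold of edgeR's test. BC035947 overlaps an exon of Mogat1 on the other strand.

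In the other direction, Pcgf2, a Polycomb gene, fell in WT mice from 22.6 to 55.1 CPM on HFD to 11.4 to 17.5 CPM on HFD-Pio, and KO mice had 5.15 to 8.33 CPM (difference 1.397, adjusted p = 0.0393 in edgeR's interaction test). The near-identical Apol9a and Apol9b, interferon-responsive genes of the apolipoprotein L family, had differences of 1.11 and 1.18, with uncertain division of reads between them.

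The larger set of genes called for Pio in WT mice on HFD was examined in the KO mice. The fit of 20 mice called 1547 genes in WT mice (12.4%, with 29.6% at an unadjusted p under 0.05), 682 higher (5.47%) and 865 lower (6.93%), and 0 of them were called in KO mice. These 1547 genes were chosen by their effect in WT mice, which enlarges their WT medians but not their KO medians. The genes higher in WT mice had a median log2 fold change of 0.55 there. In KO mice 654 of them were tested, the median was 0.02, and 15 had an unadjusted p under 0.05 in the same and 6 in the opposite direction. The genes lower in WT mice had a median of -0.57 there, and -0.01 over the 852 tested in KO mice, with 22 in the same and 9 in the opposite direction. Among all genes tested in KO mice, 3.04% had an unadjusted p under 0.05 in either direction. The splits by direction were not tested. The difference between the genotypes was called for 26 of the genes higher and 20 of the genes lower in WT mice. The number of WT calls depended on the mice in the fit, since all 40 mice together gave 63 higher (0.505%) and 56 lower (0.449%), with KO medians of 0.005 and 0.002. Acacb, Pnpla3, Scd1 and Ehhadh were among the genes that rose in WT mice, by 1.45, 1.55, 1.86 and 0.90, and their KO effects of 0.82, 1.75, 1.51 and 0.49 had no called difference from these (adjusted p = 0.497, 0.917, 0.849 and 0.463, edgeR). That test did not show the effects to be alike: the interval of the difference was -1.80 to 1.11 for Scd1. Insig2 also rose in WT mice, by 0.67 (adjusted p = 0.0458, edgeR), but its KO effect was -0.37. Its difference of -1.04 was not called (adjusted p = 0.1225 in edgeR's interaction test).

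**Figure D5:**
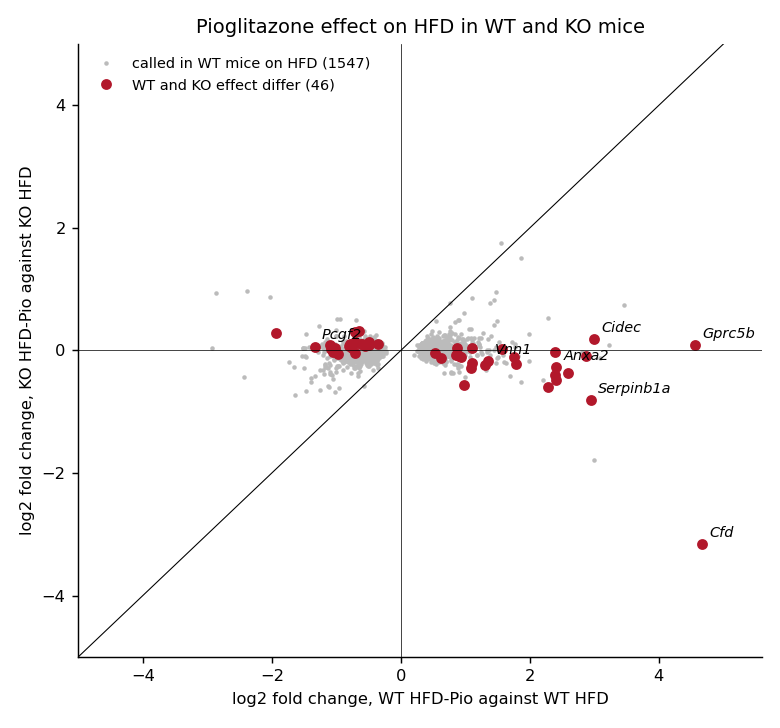
Log2 fold change for Pio on HFD in WT mice (x axis) and KO mice (y axis), from the fit of 20 mice, for the 1547 genes called in WT mice, with the 46 genes called for the difference in red and a line of equality. Most genes, chosen by their WT effect, lie along the horizontal line at 0, with Gprc5b at 4.56 in WT and 0.09 in KO mice. Cidec lies at 3.00 and 0.19.

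Whether diet changed the effect of Pio in KO mice was tested against the KO mice on control diet. The difference between the effects was called for 0 of 12457 genes (0%), with 833 at an unadjusted p under 0.05 (6.69%) in edgeR's test. DESeq2 called 0 genes, with 835 at an unadjusted p under 0.05, and limma with sample weights called 4. On control diet, Pio against no Pio was called for 0 genes by edgeR (2888 at an unadjusted p under 0.05) and for 274 (2.20%) without KO Pio mouse 13, 141 higher (1.13%) and 133 lower (1.07%). The difference between the diets remained at 0 called genes without that mouse, with 1127 at an unadjusted p under 0.05 (9.05%) and a lowest adjusted p of 0.201. The larger number called on control diet than on HFD is therefore not a test of a difference between the diets.

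Single genes were estimated with wide errors in this test. Cyp26b1 had a log2 fold change of -1.59 on HFD and 1.51 on control diet, and the latter was -0.17 without mouse 13, so that its difference moved from -3.11 to -1.43 (adjusted p = 0.534, edgeR). Pnpla3 had 3.18 on control diet and Acacb 1.59, above their values on HFD, with differences of -1.43 and -0.77 that were not called. Scd1 had 1.47 on control diet, close to its value on HFD.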

How the data were processed

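The authors aligned reads of poly-A selected liver RNA to the Ensembl 76 build of GRCm38 with STAR 2.0.4b and used Subread featureCounts 1.4.5 to count the reads of each gene that aligned to 1 place and to 1 gene, and they deposited the raw counts in 1 table per genotype. Strandedness of the counting is not given in the sources used here. Repeated lines of a gene (598 of 41192 in the KO table, all identical) were dropped, 40594 genes were present in both tables, and 355 rRNA genes were removed. Groups were taken from the labels, which name separate mice. The 10 KO HFD and KO HFD-Pio libraries held 22615415 to 28334251 counts.

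The test took in genes that reached 1 CPM in 5 or more of the 10 mice and was run with edgeR 4.0.16 in R 4.3.3 (TMM normalisation, robust quasi-likelihood F-test, Benjamini-Hochberg adjustment over all tested genes, called at an adjusted p of 0.05 or less). CPM values are TMM-normalised, and intervals are 95% confidence intervals of the log2 fold change. The differences between genotypes and between diets were interaction terms in fits of 20 mice. Alternatives were DESeq2 1.42.0, limma 3.58.1 with voom sample weights, RLE size factors, other filters, rRNA genes kept, fits of 20 or 40 mice, and each mouse left out. The scripts were tested on simulated counts. Python 3.11.15 was used for summaries.

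The genes named by rule were 12 receptor, target and carrier genes, the 5 higher and 5 lower genes of smallest p with a mean of at least 5 CPM, 3 and 3 more without mouse 9, the 2 of smallest p in each pathway list, the 6 acute phase genes highest in mouse 9 and the 3 largest called differences per direction. Other members of the lists were chosen as examples after their values were seen. The members and lists were chosen with earlier results of these data known. Gene positions are from GENCODE M21 (GRCm38), and all 64 genes named by rule matched.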

Additional observations from a re-analysis of the deposited data

Results flagged for a closer look

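Within each group of 5 mice, a value was noted when its gap to the nearest mouse took up more than 0.71 of the group's range (Dixon's 95% critical value), which chance alone gives in about 1 in 20 groups. That rate does not hold for the 6 acute phase genes, which were picked for their high ratio in mouse 9. It does not hold either for Acpp and Adam11, picked from the fit without that mouse. Most of the noted values belong to KO HFD mouse 9. It was highest in its group for the acute phase and metallothionein genes Saa2 (14780 CPM), Saa1 (14490 CPM), Orm2 (2948 CPM), Lcn2 (2857 CPM), Mt1 (2783 CPM) and Mt2 (1902 CPM). It was also highest for Cd36 (57.2 CPM), Acpp (52.4 CPM), Fabp4 (32.1 CPM), Adam11 (22.5 CPM), Serpinb1a (7.48 CPM) and Npas2 (6.78 CPM). It was lowest for Rxra (589.7 CPM), Ehhadh (106.0 CPM), Ppara (78.9 CPM) and Mpc1 (10.2 CPM, nearest mouse 20.9 CPM). Its summed markers were 80500 CPM for hepatocytes, the lowest, and 1378 CPM for Kupffer cells and macrophages, 492 CPM for neutrophils and 143 CPM for cholangiocytes, the highest.

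KO HFD-Pio mouse 20 was the highest of its group for Mt1 (1132 CPM), Mt2 (781 CPM, 781.0 against 42.7 CPM in the nearest mouse), Saa1 (409 CPM), Saa2 (226 CPM), Lcn2 (95.7 CPM) and Cidec (5.41 CPM), and the lowest for the bile salt export pump gene Abcb11 (660 CPM, 660.3 against 731 CPM). KO HFD mouse 10 was the highest for pancreatic acinar markers (815 CPM), adipocyte markers (134 CPM), the adipose triglyceride lipase gene Pnpla2 (100.8 CPM) and muscle markers (19.4 CPM). KO HFD-Pio mouse 16 had the highest sum of hepatocyte markers (137700 CPM) and the lowest level of the clock gene Bhlhe41 (0.923 CPM). KO HFD mouse 6 had the highest Cox7a2 (66.2 CPM), and KO HFD mouse 7 had the largest share of rRNA counts (1.46%).

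The effect of Pio on HFD differed between KO and WT mice in 46 genes by the interaction term. Those named were Cfd (-7.82 on the log2 scale, KO minus WT), Gprc5b (-4.47), Serpinb1a (-3.76) and Cidec (-2.81) below 0, and Pcgf2 (1.397), Apol9b (1.18) and Apol9a (1.11) above 0.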

How the results depend on the processing

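The count of 0 called genes for Pio in KO mice on HFD held with RLE size factors, other filters, rRNA genes kept, 20 or 40 mice in the fit, limma, and each mouse left out. DESeq2 called 8 genes, and 22 without mouse 9, a setting chosen after seeing the data. The genotype difference was called for 297 genes by DESeq2, 386 by limma and 10 with all 40 mice in the fit, and for 15 to 133 with single mice left out: 133 without WT HFD mouse 830, 131 without 829, and 82 without WT HFD-Pio mouse 838 or KO HFD mouse 9. Limma called 4 genes for the diet difference. With limma's sample weights the log2 effect in KO mice changed sign for Ppara (-0.083), Fabp4 (0.38), Mpc1 (-0.022), Acpp (0.70), Adam11 (0.90), Saa2 (0.081), Mt2 (0.43), Mt1 (0.34), Apol9b (-0.031), Apol9a (-0.051) and Serpinb1a (0.025), and the genotype difference for Rxra (-0.11) and Mpc1 (-0.13). With single mice left out, the log2 effect in KO mice ran across 0 for Ppara (-0.149 to 0.144), Rxra (-0.078 to 0.0026), Cidec (-0.074 to 0.306), Fabp4 (-0.433 to 0.556), Plin4 (-0.365 to 0.044), Mpc1 (-0.039 to 0.206), Acpp (-0.601 to 0.707), Adam11 (-0.349 to 0.904), Mt2 (-4.21 to 1.83), Mt1 (-3.54 to 1.57), Pcgf2 (-0.033 to 0.143), Apol9b (-0.022 to 0.181), Apol9a (-0.054 to 0.103) and Serpinb1a (-1.02 to 0.030), and the genotype difference for Rxra (-0.112 to 0.226) and Mpc1 (-0.115 to 0.151). The list medians ran across 0 for PPARα targets (-0.046 to 0.097), PPARγ-linked genes (-0.0031 to 0.067), pyruvate metabolism (-0.0036 to 0.101), cholesterol (-0.036 to 0.103), bile acids (-0.079 to 0.061), glucose metabolism (-0.046 to 0.022), P450 (-0.201 to 0.102), acute phase (-0.890 to 0.143), clock (-0.052 to 0.036) and growth hormone (-0.094 to 0.090) genes, and for markers of neutrophils (-2.96 to 0.508), lymphocytes (-0.282 to 0.016), stellate cells (-0.122 to 0.060), cholangiocytes (-0.154 to 0.060) and red blood cells (-0.204 to 0.339). That of immediate early genes ran from 0.00014 to 0.477. Without mouse 9 the log2 ratio of summed markers was 0.254 for neutrophils, 0.026 for lymphocytes, 0.016 for cholangiocytes and -3.42 for pancreatic acinar cells. The causes were not tested. No paired analysis was possible because the groups share no replicate numbers. Depth limits genes near 1 CPM, whose intervals are wide.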
